A study of Mus musculus with 6 samples.

Results

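The genes described here are 10 genes of the smooth muscle and myofibroblast contractile programme, chosen by name with earlier results of these data known: Acta2, Tagln, Myh11, Cnn1, Smtn, Lmod1, Myocd, Mylk, Cald1 and Rgs5. Each name matched 1 row of the deposited table, so they are 10 of its 57010 genes, and all 10 were among the 14799 genes with enough counts to be tested. The series holds 6 RNA-seq libraries of primary neonatal mouse cardiomyocytes (NMCMs) from newborn C57BL/6 mice, all kept under hypoxia (HO). Libraries V1, V2 and V3 are the HO + Vehicle group, and T4, T5 and T6 are the HO + β-SITO group, whose cells received β-sitosterol (β-SITO), a plant sterol. The dose and time for these libraries are not given in the sources used here, and no normoxic library was analysed here. The question was how β-SITO changed gene expression in hypoxic NMCMs.

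Smooth muscle cells, pericytes and activated fibroblasts (myofibroblasts) share a set of contractile genes. It comprises an actin and a myosin, the kinase that switches the myosin on, and proteins that sit on the thin filament. Much of the set is controlled by serum response factor (SRF), which binds CArG boxes in promoters with the cofactors myocardin and the MRTFs. In the heart these genes mark the walls of vessels and the scar-forming myofibroblasts, and some are also active in immature cardiomyocytes.

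NMCMs were separated from fibroblasts by differential adhesion, so the labelled cell type was compared with marker genes. All 12 cardiomyocyte markers were detected, and their summed level was 7219 to 8312 CPM (counts scaled to the TMM-normalized library size) in the HO + Vehicle libraries. The 10 fibroblast markers summed to 29333 to 30760 CPM there, led by Col3a1 and Col1a1, which encode collagen chains. Markers of endothelial cells, macrophages, pericytes and the epicardium were also detected. The libraries are therefore described as cultures with several cell types. In such bulk samples more cells of a type and more RNA per cell cannot be told apart. The libraries held 16694734 to 18460522 counts. The library names in the deposited counts, which differ from the names used here, carry a suffix for T4, T5 and T6 alone. Any difference in preparation that this suffix stands for cannot be told apart from β-SITO. The labels do not state that libraries came from separate cultures, and p-values measure the spread between these libraries only.

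Contractile genes were mostly higher with β-SITO. With an adjusted p under 0.05 (edgeR's quasi-likelihood test, Benjamini-Hochberg adjustment over all tested genes), 9 of the 10 rose and 1, Cald1, fell. Among all tested genes 33.0% rose and 33.8% fell at this threshold. Because the 10 genes and the lists further below were chosen with earlier results known, such shares are given as a description and not as a test. With the added requirement of more than 2-fold, the threshold for differentially expressed genes (DEGs), 6 of the 10 were DEGs higher and 0 were DEGs lower, against 12.8% and 10.1% of all tested genes. At an unadjusted p under 0.05 the only gene in the lower direction was again Cald1, and DESeq2 also gave 0 DEGs lower. The median log2 fold change of the 10 genes was 1.31, beside -0.01 for all tested genes. For 8 of the 10 every HO + β-SITO library lay above every HO + Vehicle library, and for 1 every library lay below, where 34.8% and 35.8% of all tested genes did so. The comparison of 3 libraries with 3 cannot give an exact permutation p under 0.1.

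**Figure D1:**
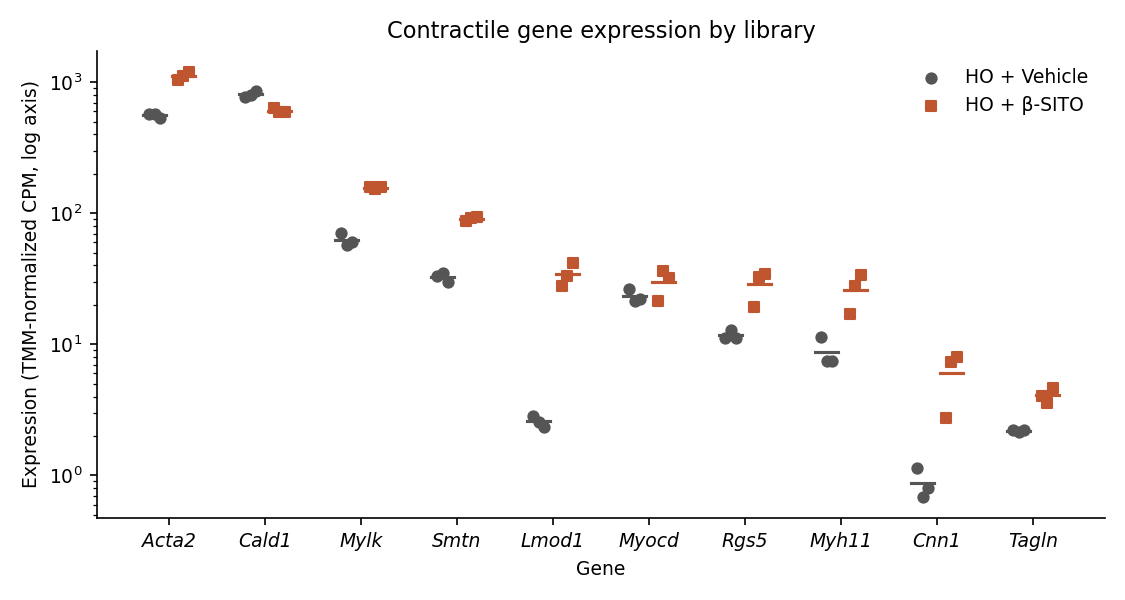
Expression of the 10 contractile genes in each library (TMM-normalized CPM, log axis), with HO + Vehicle libraries as grey circles, HO + β-SITO libraries as orange squares and short lines for group means. The groups overlap for Myocd, while the other genes are separated, with Cald1 the one gene that is lower in the HO + β-SITO group.

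The thin filament genes come first. Acta2 encodes smooth muscle α-actin (α-SMA), the most used marker of myofibroblasts. Acta2 had 574.7, 574.5 and 536.0 CPM in V1, V2 and V3 and 1038, 1107 and 1197 CPM in T4, T5 and T6. All HO + β-SITO libraries were high and the groups did not overlap. Its mean of 561.7 ± 22.3 CPM rose to 1114 ± 79.7 CPM (SD, n = 3), and the log2 fold change was 0.99 ± 0.07 (SE, edgeR adjusted p = 2.73e-09). This change lies just under the 2-fold limit. Acta2 passed that limit in 7 of 14 alternative analyses, and its log2 fold change was 1.14 with library size as the only scaling, which shifted the median of all genes to 0.14. Per kilobase of exon Acta2 was the most abundant of the 10 genes in the HO + Vehicle group, at 255.8 CPM per kilobase, and it remained so with β-SITO, at 507.3.

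In the table Acta2 (ENSMUSG00000035783) lies on chromosome 19 from 34218490 to 34232990 on the minus strand, in the build GRCm39 that the submitters' processing notes name. Transcripts of Acta2 hold 2096 windows of 100 bases, and 0 of them occur in a transcript of another gene in GENCODE vM21, so reads at least that long separate it from the other actins. The study's primer list for RT-qPCR holds a pair for α-SMA, shown because it marks the stretch of the gene that is amplified. By RT-qPCR the study reported raised α-SMA mRNA in infarcted mouse hearts, which β-SITO reversed to varying degrees. It also reported that β-SITO partly lowered α-SMA staining in TGF-β-treated cardiac fibroblasts. Those directions are opposite to that of Acta2 here, but they come from other samples than these hypoxic NMCM libraries. The primers match the Acta2 transcripts and no other gene in GENCODE vM21. On Acta2-201 they span bases 641 to 778, a product of 138 bases.
α-SMA forward: tgctgacagaggcaccactgaa
α-SMA reverse: cagttgtacgtccagaggcatag

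The promoter of Acta2 is shown with that of Lmod1, since Acta2 is the most abundant and Lmod1 the most increased of the 10 genes. RefSeq windows (250 bases before to 50 after the start, build GRCm38.p6) were found for 7 of the 10 genes, in 8 windows. A CArG box (CC, 6 bases of A or T, then GG, a motif that reads as a CArG box on either strand) was in 0 of the 8 windows and in 1.63% of all 32851 windows. Allowing 1 G or C among the middle 6 bases, the motif was in 1 of the 8, that of Acta2, and in 9.98% of all windows. Acta2 held it at 2 places, from -84 to -75 and from -34 to -25 relative to the start. The 120 bases before each start follow, 5′ to 3′ on the gene's strand, with those matches in capitals. The first is chr19:34255374-34255493 on the minus strand and the second is chr1:135324693-135324812 on the plus strand.
Acta2: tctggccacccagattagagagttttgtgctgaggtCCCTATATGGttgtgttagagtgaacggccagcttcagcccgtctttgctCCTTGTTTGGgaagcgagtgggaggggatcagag
Lmod1: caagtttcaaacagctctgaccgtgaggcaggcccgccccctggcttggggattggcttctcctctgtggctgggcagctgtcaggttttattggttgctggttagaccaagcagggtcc
A match is a description of the letters and was not tested as a binding site, and the windows hold none of the more distant elements.

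Lmod1 encodes leiomodin 1, which starts new actin filaments in smooth muscle. Its levels were 2.84, 2.57 and 2.36 CPM in V1, V2 and V3 and 28.0, 33.1 and 41.9 CPM in T4, T5 and T6. The gene was near the low end of the 10 in every HO + Vehicle library and far higher in each HO + β-SITO library. The log2 fold change of 3.72 ± 0.17 (SE, edgeR adjusted p = 1.99e-11), a 13.2-fold rise, was the largest of the 10 genes. It lies on chromosome 1 from 135252545 to 135295803.

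Cnn1 encodes calponin 1, an actin-binding inhibitor of myosin that marks mature smooth muscle. Counts were low, at 18, 11 and 13 in V1, V2 and V3 against 53, 131 and 154 in T4, T5 and T6. These correspond to 1.14, 0.69 and 0.81 CPM against 2.72, 7.36 and 8.02 CPM. T4 was the lowest of the HO + β-SITO libraries and still above all HO + Vehicle libraries. The log2 fold change was 2.77 ± 0.39 (SE, edgeR adjusted p = 1.35e-05), with the largest SE of the 10 genes, and it was 3.12 without T4 and 2.51 without T6.

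Smtn encodes smoothelin, a filament protein of contractile smooth muscle. It had 33.4, 34.7 and 29.9 CPM in V1, V2 and V3 and 87.4, 92.1 and 93.3 CPM in T4, T5 and T6. The HO + β-SITO libraries lay close together, with a log2 fold change of 1.48 ± 0.07 (SE, edgeR adjusted p = 4.09e-11). Of its exonic bases, 16.3% are also exons of genes on the opposite strand, of which the most abundant had at most 3 counts. The strand setting of the counting is not given in the sources used here. Without strand, reads of shared bases are assigned to neither gene, so this low count cannot show whether the overlap matters.

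Tagln encodes transgelin (SM22α), an early marker of smooth muscle differentiation. It had only 35, 34 and 36 counts in V1, V2 and V3 and 79, 64 and 89 in T4, T5 and T6. The corresponding levels were 2.21, 2.13 and 2.23 CPM against 4.06, 3.60 and 4.63 CPM. All HO + β-SITO libraries were above all HO + Vehicle libraries, and the log2 fold change was 0.90 ± 0.18 (SE, edgeR adjusted p = 4.99e-04), under 2-fold. The level of Tagln is uncertain. In GENCODE vM21, 67.9% of its exonic bases also lie in exons of genes on the opposite strand (Gm48529 and Pcsk7), and the strand setting of the counting is not given in the sources used here. Without strand, reads of such bases cannot be assigned to either gene. Pcsk7 fell, with a log2 fold change of -0.50 (edgeR adjusted p = 1.17e-05), and Gm48529 had at most 20 counts in any library.

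Cald1 encodes caldesmon, which holds back the actin-activated myosin ATPase and exists in smooth muscle and non-muscle forms that these gene counts do not separate. Cald1 had 771.7, 795.3 and 863.5 CPM in V1, V2 and V3 and 632.3, 596.5 and 589.8 CPM in T4, T5 and T6. It was the one gene of the 10 that fell, with no overlap between groups. The log2 fold change was -0.42 ± 0.06 (SE, edgeR adjusted p = 2.46e-05) and lay between -0.45 and -0.27 across the alternatives. By counts it was the most abundant of the 10 genes in the HO + Vehicle group and the second, after Acta2, in the HO + β-SITO group.

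**Figure D2:**
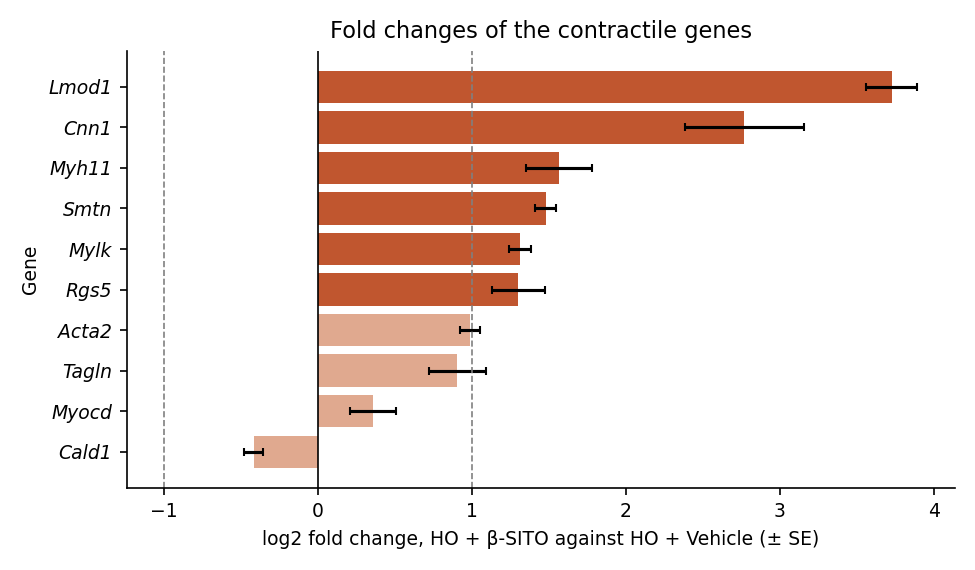
Log2 fold changes of the 10 contractile genes (HO + β-SITO against HO + Vehicle, 3 libraries each) with error bars of ± 1 SE, dark bars for changes of more than 2-fold and dashed lines at 2-fold. Lmod1 (3.72) and Cnn1 (2.77) rise most, Acta2 (0.99) ends at the 2-fold line and Cald1 (-0.42) points the other way.

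The motor and its switch followed. Myh11 encodes the smooth muscle myosin heavy chain, the most specific marker of the lineage. It had 11.4, 7.46 and 7.5 CPM in V1, V2 and V3 and 16.9, 27.7 and 33.7 CPM in T4, T5 and T6. V1 was the highest of its group and T4 the lowest of the other, and the groups still did not overlap. The log2 fold change was 1.57 ± 0.21 (SE, edgeR adjusted p = 1.08e-05).

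Mylk encodes myosin light chain kinase, which phosphorylates the regulatory light chain and so starts contraction. It had 70.6, 57.7 and 60.2 CPM in V1, V2 and V3 against 157.7, 152.7 and 158.0 CPM in T4, T5 and T6. The HO + β-SITO libraries differed little among themselves, and the log2 fold change was 1.31 ± 0.07 (SE, edgeR adjusted p = 2.48e-10). Its locus on chromosome 16 (34565580 to 34822790) also gives the short protein telokin, and the counts do not separate the transcripts.

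Myocd encodes myocardin, the SRF cofactor of smooth and cardiac muscle. It had 26.5, 21.3 and 22.1 CPM in V1, V2 and V3 and 21.4, 36.5 and 32.01 CPM in T4, T5 and T6. T4 lay among the HO + Vehicle libraries, and the groups overlapped (exact permutation test, two-sided, p = 0.3). The log2 fold change of 0.36 ± 0.15 (SE) passed narrowly (edgeR adjusted p = 0.0461). It did not pass with DESeq2 (adjusted p = 0.182), with limma-voom (adjusted p = 0.0838) or without V2, V3, T5 or T6 (adjusted p = 0.084 to 0.187). Without T4 the log2 fold change was 0.55 (adjusted p = 1.92e-05).

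Rgs5 encodes a regulator of G-protein signalling that marks pericytes and vascular smooth muscle. It had 11.2, 12.8 and 11.1 CPM in V1, V2 and V3 and 19.4, 32.8 and 34.5 CPM in T4, T5 and T6. The groups did not overlap, with T4 the lowest of the HO + β-SITO libraries. The log2 fold change was 1.30 ± 0.17 (SE, edgeR adjusted p = 7.07e-06) and was 1.52 without T4.

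The genes differed in how evenly they rose. Relative to the mean of the HO + Vehicle group, Smtn was 2.68-, 2.82- and 2.86-fold higher in T4, T5 and T6, and Mylk was 2.51-, 2.43- and 2.52-fold higher. These genes rose by nearly the same factor in each library. Cnn1 was 3.10-fold higher in T4 against 8.39- and 9.14-fold in T5 and T6. Myh11 was 1.92-fold higher in T4 against 3.14- and 3.83-fold, Rgs5 1.66-fold against 2.80- and 2.94-fold, and Myocd 0.917-fold against 1.56- and 1.37-fold. For these 4 genes T4 lay well below T5 and T6. The summed cardiomyocyte markers were also lowest in T4, at 6428 CPM against 10989 in T5 and 11179 in T6, and the HO + Vehicle libraries had 7219 to 8312. Each of the 12 cardiomyocyte markers was lower in T4 than in T5 and T6. Among pericyte and mural cell markers this held for 9 of 11, such as Kcnj8 (13.7 CPM against 19.7 and 17.6) and Abcc9 (70.6 against 98.5 and 93.6), examples chosen after their values were seen. Their sum differed less (2162, 2314 and 2262 CPM in T4, T5 and T6), since Pdgfrb and Gucy1a1 make up most of it and Gucy1a1 was highest in T4. Of the fibroblast markers 2 of 10 were lowest in T4, of the endothelial markers 4 of 8, of the macrophage markers 0 of 8 and of the epicardial markers 2 of 7. Of the 10 contractile genes 7 were lowest in T4. The share of all tested genes that were lowest in T4 was not computed, so these counts have no background beside them. The part of the cell type makeup in the spread of the 4 genes was not tested. Without T4 all 9 genes that rose were again higher, and 7 of them were DEGs.

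**Figure D3:**
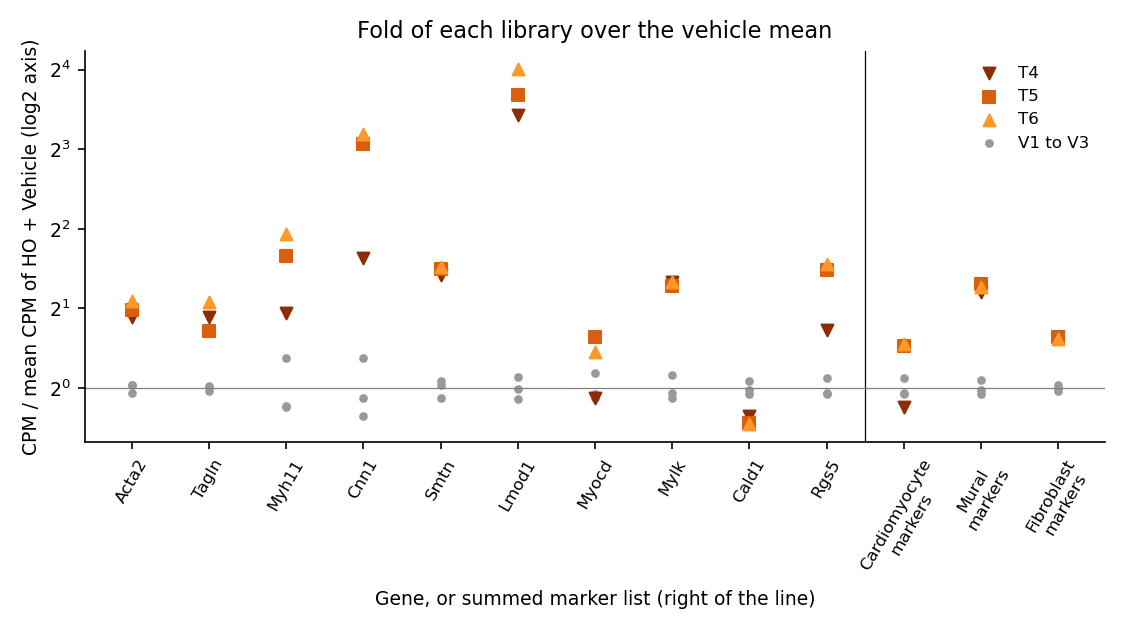
CPM of each library divided by the HO + Vehicle mean (log2 axis) for the 10 contractile genes and, right of the line, for the summed cardiomyocyte, mural and fibroblast markers. T4 (dark triangles pointing down) lies apart from T5 and T6 for Cnn1, Myh11, Rgs5, Myocd and the cardiomyocyte markers, and near them for Smtn, Mylk and the summed mural and fibroblast markers, although 9 of the 11 single mural markers were lowest in T4.

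Levels are comparable between genes only per length. In the HO + Vehicle group the order per kilobase of exon was Acta2 (255.8 CPM per kilobase), Cald1 (67.3), Smtn (7.46), Mylk (5.58), Myocd (3.63), Rgs5 (2.58), Myh11 (1.16), Tagln (1.10), Lmod1 (0.66) and Cnn1 (0.32). Myh11 and Tagln, next to each other in it, overlapped between libraries. In the HO + β-SITO group Acta2 (507.3), Cald1 (50.3), Smtn (20.8) and Mylk (13.9) kept their places and Lmod1 (8.69) moved up to the fifth. Below it Rgs5 (6.35), Myocd (4.66), Myh11 (3.43), Cnn1 (2.21) and Tagln (2.06) each overlapped with their neighbour. The place of Tagln in both orders is uncertain, because 67.9% of the exonic bases used for its length also lie in exons of other genes.

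The study names no comparison of these genes with their relatives, and shares within families of paralogs were computed because they do not depend on the scaling between libraries. A share is the CPM per kilobase of a gene divided by the sum over its family in the same library. It therefore also depends on the levels of the relatives, some of which, such as Actc1 and Mylk3, are cardiac genes, and so on the mix of cells. The share of Acta2 among the 6 actins was 10.96%, 11.45% and 11.37% in V1, V2 and V3 and 17.98%, 16.83% and 17.64% in T4, T5 and T6. The groups were separate, and a two-sided exact permutation test gave p = 0.1, the lowest value it can reach. Actg1, cytoplasmic γ-actin, went up in step, from 9.56% ± 0.62 to 15.7% ± 1.67 (SD, n = 3), with a log2 fold change of 1.06. Actc1, cardiac α-actin, had a log2 fold change of 0.00 (edgeR adjusted p = 0.981) with overlapping libraries. Its share was 22.87% in T4 against 34.86% and 34.69% in T5 and T6. T4 had the lowest Acta2 CPM of the HO + β-SITO libraries but the highest share of Acta2. Actb, cytoplasmic β-actin, had a log2 fold change of 0.21 (edgeR adjusted p = 0.01). Actg2, the actin of visceral smooth muscle, rose with a log2 fold change of 0.72 (adjusted p = 0.00384) from 6.43 to 10.6 CPM, with overlapping libraries, and Acta1 was near 0 with at most 0.884 CPM in any library.

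In the leiomodin family Lmod1 took 2.19% ± 0.15 of the sum without β-SITO and 21.6% ± 2.84 with it (SD, n = 3). The muscle leiomodins Lmod2 (log2 fold change 0.11, edgeR adjusted p = 0.502) and Lmod3 (0.36, adjusted p = 0.0822) did not pass, so in this family the change was measured for the smooth muscle member. Mylk took 15.8% ± 0.4 of the family of myosin light chain kinases against 33.3% ± 4.61 (SD, n = 3). Its share was highest in T4 (38.63%), where that of Mylk3 was lowest (49.55%). Mylk3, the cardiac kinase, had 103.4 ± 12.4 and 103.3 ± 22.9 CPM (SD, n = 3, log2 fold change 0.00, adjusted p = 0.989), Mylk2 fell (-0.69) and Mylk4 rose (2.62) from a low level.

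In the other families some relatives changed more than the contractile gene and some less. Myh10, which encodes non-muscle myosin IIB, rose from 59.4 to 329.2 CPM, a log2 fold change of 2.47 against 1.57 for Myh11. The share of Myh11 among 4 myosins was 2.08% ± 0.4 and 3.51% ± 1.17 (SD, n = 3), with T4 among the HO + Vehicle libraries (exact permutation test, two-sided, p = 0.2). Myh9 rose with a log2 fold change of 0.38 (edgeR adjusted p = 4.55e-05), and Myh14, at 0.33, did not pass (adjusted p = 0.134). Smtn went down as a share, from 59.3% ± 2.72 to 37.1% ± 0.37 (SD, n = 3) while Smtnl2 rose more, with a log2 fold change of 2.78. Among the calponins Cnn2 rose (1.34) and Cnn3 fell (-0.25), and Cnn1 took at most 1.70% in any library.

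Tagln2, the transgelin of non-muscle cells, fell to 431.5 ± 2.14 CPM with β-SITO against 862.4 ± 50.5 CPM without (SD, n = 3, log2 fold change -0.999), opposite to Tagln. The level of Tagln is uncertain, because its counts were low and 67.9% of its exonic bases also lie in exons of other genes. Of the myocardin family, Mrtfa (log2 fold change 0.56, edgeR adjusted p = 3.65e-05) and Mrtfb (0.42, adjusted p = 2.88e-04) rose. The share of Myocd in it was 31.2% ± 0.77 and 29.0% ± 5.37 (SD, n = 3), and its groups overlapped (two-sided exact permutation p = 0.8).

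**Figure D4:**
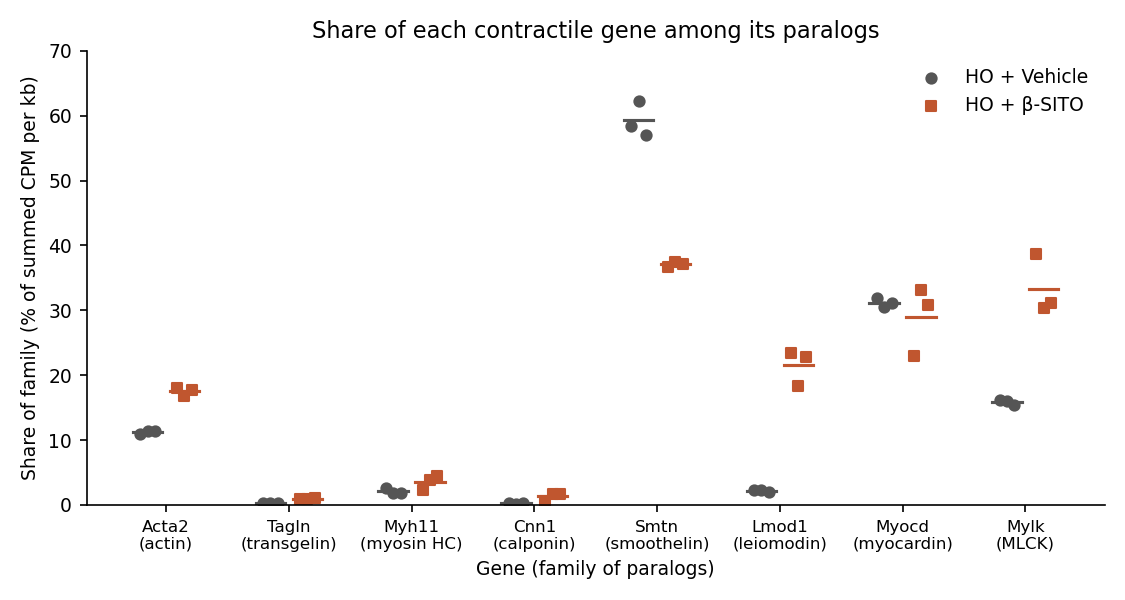
Share of each contractile gene in the summed CPM per kilobase of its family of paralogs, by library (grey circles, HO + Vehicle; orange squares, HO + β-SITO; short lines, group means). Lmod1, Mylk and Acta2 take larger shares in every HO + β-SITO library, Smtn takes smaller ones, and Myocd overlaps. The share of Tagln is uncertain because most of its exonic bases overlap exons of other genes.

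Other genes of the contractile programme were counted in lists written by role. Of all tested genes 33.0% rose and 33.8% fell, with 12.8% DEGs higher and 10.1% DEGs lower. Of 23 partners in the contractile apparatus, 16 rose, 3 fell and 4 did not pass, with 6 DEGs higher, 0 lower and a median log2 fold change of 0.42. Pdlim3, a Z-disc and stress-fibre adaptor, rose from 16.7 ± 0.67 to 137.1 ± 4.38 CPM (SD, n = 3, log2 fold change 3.04). Tpm2, β-tropomyosin, rose from 30.4 to 104.9 CPM (1.79). The lowest were Des, the muscle intermediate filament desmin (-0.54, edgeR adjusted p = 0.0114), and Synpo2 (-0.29, adjusted p = 0.00245). Des had 72.0 CPM in T4 against 134.3 and 138.8 in T5 and T6, so T4 was the lowest library for it too.

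On the SRF and MRTF axis 11 of 19 genes rose and 3 fell, where 33.0% and 33.8% of all tested genes did so. The other 5 did not pass, and the median of the 19 was 0.29. The LIM proteins Fhl1 (log2 fold change 2.44) and Fhl2 (1.44), which bind SRF or its partners, rose most. Srf itself rose by less, from 25.2 ± 0.93 to 30.8 ± 1.23 CPM (SD, n = 3, log2 fold change 0.29, edgeR adjusted p = 0.00298). Klf4, a repressor of smooth muscle genes, fell (-0.37, adjusted p = 0.00128), and Klf5, at -0.40, did not pass (adjusted p = 0.0759).

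The pericyte and mural cell markers, which share cell types with Rgs5, rose in 11 of 11 tested genes, of which 7 were DEGs, with a median of 1.59. Gucy1a1, a subunit of the nitric oxide receptor guanylate cyclase (3.41), and Kcnj8, a potassium channel subunit of pericytes (1.99), were highest, and Pdgfrb (0.62) and Cspg4 (0.61) lowest. Gucy1a1 had 57.5 to 58.2 CPM in the HO + Vehicle libraries and 596.5 to 647.7 CPM in the others. The summed level of the mural markers was 884.7 to 1007 CPM in the HO + Vehicle libraries and 2162 to 2314 CPM in the HO + β-SITO libraries. Endothelial markers moved with them, with 8 of 8 higher and a sum of 211.2 to 241.3 against 830.9 to 862.8 CPM, and Cdh5 and Pecam1 the most abundant. Fibroblast markers rose in 8 of 10 genes. Of all tested genes 33.0% rose and 12.8% were DEGs higher. The part of mural, endothelial and fibroblast cells in the rise of the contractile genes was not tested.

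**Figure D5:**
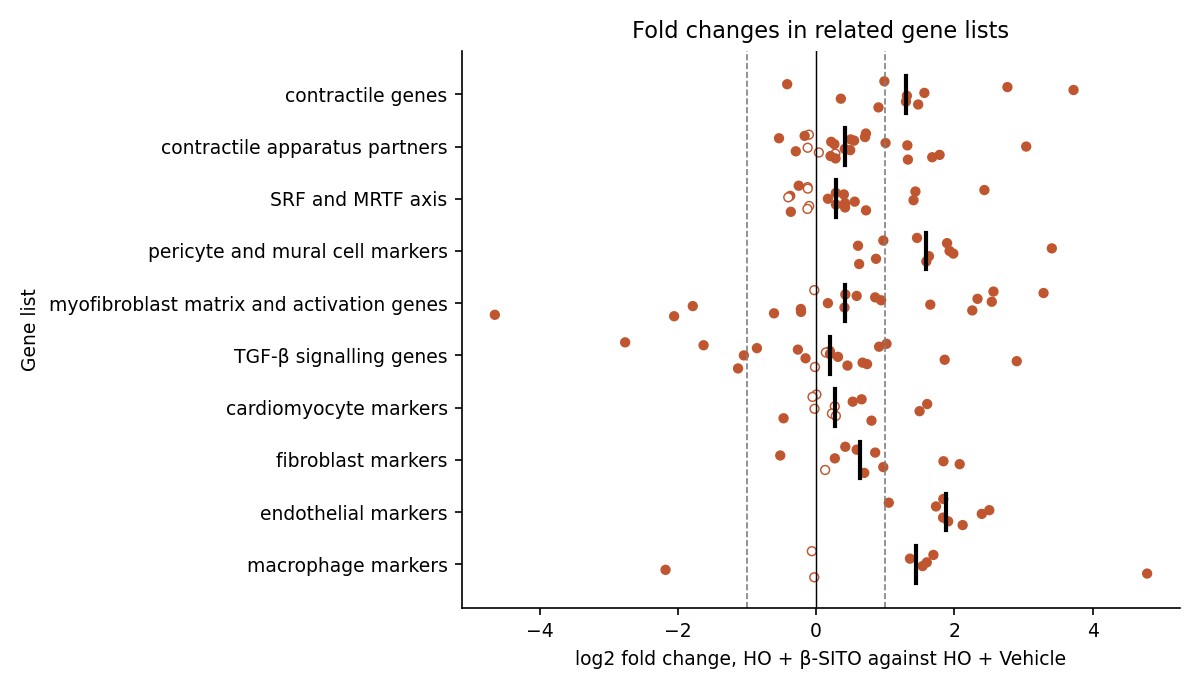
Log2 fold changes of single genes (points, filled where the edgeR adjusted p was under 0.05) in the contractile genes and in related lists, with black lines for list medians and dashed lines at 2-fold. The medians of mural (1.59), endothelial (1.88) and macrophage markers (1.45) lie on the higher side like that of the contractile genes (1.31). Of the macrophage markers 1 was a DEG lower, and the myofibroblast and TGF-β lists spread to both sides. All tested genes, not drawn here, also went both ways (33.0% rose and 33.8% fell).

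Genes of myofibroblast matrix and activation went both ways, as did all tested genes, of which 33.0% rose and 33.8% fell. Of 19, 12 rose, 6 fell and 1 did not pass, with a median of 0.42. Of these, 6 were DEGs higher and 3 DEGs lower, where 12.8% and 10.1% of all tested genes were. Cilp, a cartilage and scar matrix protein (log2 fold change 3.29), and Ccn2, connective tissue growth factor (2.57), were highest. Timp1, an inhibitor of matrix proteases, fell from 1726 ± 129 to 68.9 ± 0.35 CPM (SD, n = 3, -4.65), and Tnc, tenascin C, fell as well (-2.05). In the TGF-β list 10 of 19 rose, 7 fell and 2 did not pass, with a median of 0.20. The ligands Tgfb3 (2.90) and Tgfb2 (1.86) were highest, and Ltbp1, which stores the ligand in the matrix (-2.76), was lowest. Tgfb1 had a log2 fold change of -0.15 (edgeR adjusted p = 0.0227).

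The genes whose centred log2 CPM over the 6 libraries lay closest to that of Acta2 were Ech1, Pkdcc and Ivd, with root mean square differences of 0.04, 0.05 and 0.05, among 10991 candidates. With 2 groups this likeness reflects mainly a similar difference between them.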

How the data were processed

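Total RNA was extracted from NMCMs, and mRNA libraries were sequenced with paired-end reads. The authors deposited 1 table of raw counts per gene, without normalization. Per the labels, the processing notes name FastQC, HISAT2, featureCounts and GRCm39, with versions, strand setting and handling of multi-mapping reads not given in the sources used here. From the counts, R 4.3.3 with edgeR 4.0.16 was used for filterByExpr (42211 genes removed), TMM normalization and the quasi-likelihood test over 14799 genes. The biological coefficient of variation was 6.52%. The SE was the log2 fold change divided by the square root of its F statistic. The study used DESeq2, here an alternative (DESeq2 1.42.0), as was limma-voom (limma 3.58.1). Exon lengths, exon overlaps and shared windows came from GENCODE vM21 (GRCm38), without its coordinates. The members and lists were chosen with earlier results of these data known. Named genes were the 10 genes, their paralogs and, per list, the 2 highest and 2 lowest with a mean of at least 50 counts. For cell type markers other than the pericyte and mural list, the 2 most abundant were named instead. Des in each library and Pcsk7, Tgfb1 and Srf were chosen after their values were seen. Exact permutation tests used CPM or shares. Some results on related genes are not reported here.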

Additional observations from a re-analysis of the deposited data

How the results depend on the processing

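Across 14 alternative analyses (DESeq2, limma-voom, other scalings, filters, no mitochondrially encoded genes, each library left out) the direction of all 10 contractile genes was kept, and the adjusted p stayed under 0.05 for 9 of them. Myocd passed in 8 of the 14. The count of DEGs higher was 6 to 8, and 5 with glmTreat against 2-fold. It was 8 with library size only and with upper quartile normalization, which moved the median of all genes to 0.14 and the calls over all genes from 4885 higher and 5007 lower to 6175 and 3816 (library size only). Tagln, like Acta2, was a DEG under some of these settings, 3 of 14. Shares did not depend on scaling, but they do depend on the levels of the relatives. Without length correction the rise in share was 30.9 percentage points for Lmod1, against 19.4, and 22.7 for Mylk, against 17.5. The difference in the share of Myocd ran from -4.31 to 0.82 percentage points with each library left out and changed sign without T4. Library numbers 1 to 3 and 4 to 6 are not shared between groups, so no paired analysis was possible because no number links libraries. Low counts limit the precision for Cnn1 and Tagln. No group was large enough for a test of outlying libraries.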

Other observations

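Among the relatives of Rgs5, 15 of 20 RGS genes were tested. Of these 8 rose and 4 fell, where 33.0% and 33.8% of all tested genes did so, and 3 did not pass. There were 6 DEGs higher and 3 lower, against 12.8% and 10.1% of all tested genes. The median log2 fold change of the tested RGS genes was 0.30. Among those with a mean of at least 50 counts, Rgs10 (1.91) and Rgs2 (1.61) were highest; Rgs18 (2.12, edgeR adjusted p = 6.2e-04) and Rgs7 (1.99, adjusted p = 0.0041), below that limit and chosen after their values were seen, rose too. Rgs16 fell from 84.3 ± 2.64 to 16.3 ± 0.84 CPM (SD, n = 3, -2.37, edgeR adjusted p = 1.30e-13), and Rgs17 fell from 12.2 to 3.84 CPM (-1.67). Rgs4, chosen after its values were seen, had 4.11, 2.63 and 3.28 CPM in V1, V2 and V3 and 4.27, 8.43 and 9.21 CPM in T4, T5 and T6, so T4 was again the lowest HO + β-SITO library.

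Epicardial and mesothelial markers, which mark the source of many mural cells and fibroblasts of the heart, rose in 6 of 7 genes, with 2 DEGs and a median of 0.60. The most abundant were Tbx18 (0.13, edgeR adjusted p = 0.101) and Lrrn4 (0.46). Of all tested genes 33.0% rose, 33.8% fell and 12.8% were DEGs higher. Macrophage markers rose in 5 of 8 genes and 1 fell. Over all 6 libraries the most abundant were Mrc1 (4.79) and C1qb (1.36), while Mrc1 was the lowest of the 8 in the HO + Vehicle group, at 11.8 CPM. The leading markers there, named after their values were seen, were Adgre1, at 151.7 CPM (-0.06, edgeR adjusted p = 0.471), and Fcgr1, which fell from 115.9 to 25.6 CPM (-2.18).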
